A study of Mus musculus with 6 samples.

Results

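Col1a1, Col3a1 and the related collagen chain genes Col1a2, Col5a1, Col6a1 and Col6a2 were examined in bulk RNA sequencing of mouse hippocampus. They were chosen by name from a list of 7 genes, of which 6 were among the 3733 genes of the deposited table. Col5a2 was not in that table, which holds only genes past the authors' threshold in some comparison, and was not analysed here. All 6 genes passed the filter on low counts. There were 2 libraries in each of 3 groups. Control was compared with PIA, which stands for postnatal immune activation and is called LPS (bacterial lipopolysaccharide, a stimulus of innate immunity) in the series' design. The third group, PIA+IL-27, is given there as LPS with rIL-27, a cytokine of the IL-12 family. The question asked of each collagen is whether its transcript level differed with immune activation, and whether it differed again with the cytokine. No strain, sex, age, dose, interval or animal is named in the labels used here. The p-values therefore measure only the spread between these libraries, which may in part be technical. In the main test that spread was shared over all tested genes and was not each collagen's own. The PIA+IL-27 libraries differed in 4 Y-linked genes (summed normalized read count 1476 and 6.80), so they were not repeats of 1 RNA sample.

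Collagens are triple helices of 3 polypeptide chains, each chain encoded by its own gene. Type I collagen, the main tensile fibre of skin, bone and meninges, is built from the products of Col1a1 and Col1a2. Type III collagen, the product of Col3a1, forms finer fibres that are often mixed with type I in vessel walls and soft tissue. Type V collagen, which contains the Col5a1 chain, sits inside type I fibrils and controls their diameter, and type VI collagen, made from Col6a1, Col6a2 and further chains, forms beaded filaments around cells. Brain tissue holds little fibrillar collagen. Most of it is made by fibroblasts of the meninges and of the larger vessels, with a contribution from mural cells. In bulk RNA, fewer cells of a type and less RNA per cell cannot be told apart.

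The 6 genes were lower in both PIA+IL-27 libraries than in both PIA libraries, and the promoters of 5 of them were found in RefSeq (build GRCm38.p6). Each window runs from 250 bases before the annotated start to 50 after it. A promoter is printed for each fibrillar type with a match, so those of Col6a1 and Col6a2 are not shown. Capitals mark the letters TATAAA (as in a TATA box), CCAAT (as in a CCAAT box) and GGGCGG (as in a GC box), at any position. Each was searched on both strands, so that ATTGG and CCGCCC in the sequence are matches on the opposite strand.
Col3a1 promoter, chr1:45311288-45311587, strand +: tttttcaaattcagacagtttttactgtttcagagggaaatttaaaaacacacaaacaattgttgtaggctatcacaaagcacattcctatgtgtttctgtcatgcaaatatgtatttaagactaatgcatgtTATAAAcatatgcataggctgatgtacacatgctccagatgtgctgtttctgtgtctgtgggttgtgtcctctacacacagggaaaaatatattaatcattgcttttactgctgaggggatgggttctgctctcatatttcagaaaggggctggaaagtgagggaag
Col1a2 promoter, chr6:4505368-4505667, strand +: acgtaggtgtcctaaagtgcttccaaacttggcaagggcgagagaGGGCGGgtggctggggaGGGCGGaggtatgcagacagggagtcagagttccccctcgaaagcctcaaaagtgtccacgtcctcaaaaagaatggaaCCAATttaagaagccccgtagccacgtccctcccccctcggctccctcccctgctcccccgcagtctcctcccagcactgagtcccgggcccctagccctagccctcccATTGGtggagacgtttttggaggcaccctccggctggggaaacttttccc
Col5a1 promoter, chr2:27886175-27886474, strand +: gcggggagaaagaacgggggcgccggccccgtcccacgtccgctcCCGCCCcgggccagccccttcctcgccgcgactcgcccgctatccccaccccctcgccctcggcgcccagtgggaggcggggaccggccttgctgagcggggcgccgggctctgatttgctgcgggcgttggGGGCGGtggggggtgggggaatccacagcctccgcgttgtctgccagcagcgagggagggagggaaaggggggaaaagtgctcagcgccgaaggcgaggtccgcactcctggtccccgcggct
The Col3a1 window had a GC content of 37.7% and 1 TATAAA, 117 bases before the start. The Col1a2 window was 61.0% GC, with GGGCGG at 205 and 188 bases before the start and CCAAT at 109 bases before it, and a second CCAAT on the opposite strand at the start. Col5a1 had the highest GC content of the 3, 75.0%, and 2 GGGCGG matches. Of the 5 matched genes, 1 had TATAAA, 1 CCAAT and 3 GGGCGG. Over 32851 promoter windows of the same length, TATAAA was present in 13.6%, CCAAT in 37.4% and GGGCGG in 35.7%. The STAT-type motif TTCNNNGAA, a palindrome, was in none of the 5 matched genes' windows (0 of 5) and in 8.30% of all windows, and its absence says only that these letters are not in these windows.

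Col1a1 had normalized read counts, which are reads divided by 1 factor per library, of 3858 and 1461 in Control 1 and 2. The PIA libraries had 2423 and 2204, and those with PIA+IL-27 1041 and 762. Both PIA+IL-27 libraries were below all 4 others, while the PIA libraries lay between the Controls. Col1a2, the partner chain of type I collagen, had 3725 and 3129.8 in the Control libraries, 4128 and 2804 in those with PIA alone and 2059 and 1100.1 in those with PIA+IL-27. Its PIA libraries lay on either side of the Controls, and both PIA+IL-27 libraries were again below the rest.

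Col3a1 had normalized read counts of 2548 and 2322 in the Control libraries, 3706 and 1585 in those with PIA alone and 1389.9 and 935 in those with PIA+IL-27. PIA 1 was the highest library and PIA 2 the lowest of those without IL-27, so PIA and Control overlapped. PIA 2 was only slightly above PIA+IL-27 1.

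Col5a1, the fibril-regulating chain, had 688 and 410.4 in the Control libraries, 729 and 1247 in those with PIA alone and 470.3 and 326 in those with PIA+IL-27. Both PIA libraries were above both Controls, and PIA+IL-27 overlapped with Control. Col6a1 had 788 and 677 in the Control libraries, 1250.1 and 1132 in those with PIA alone and 659 and 363 in those with PIA+IL-27. Col6a2 had 788 and 598 in the Control libraries, 1067 and 1473 in those with PIA alone and 714 and 343 in those with PIA+IL-27. Col6a1 and Col6a2 thus had the same arrangement as Col5a1 against Control in PIA, but both PIA+IL-27 libraries were below both Controls only for Col6a1. PIA+IL-27 2 was the lowest of the 6 libraries for all 6 genes.

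**Figure D1:**
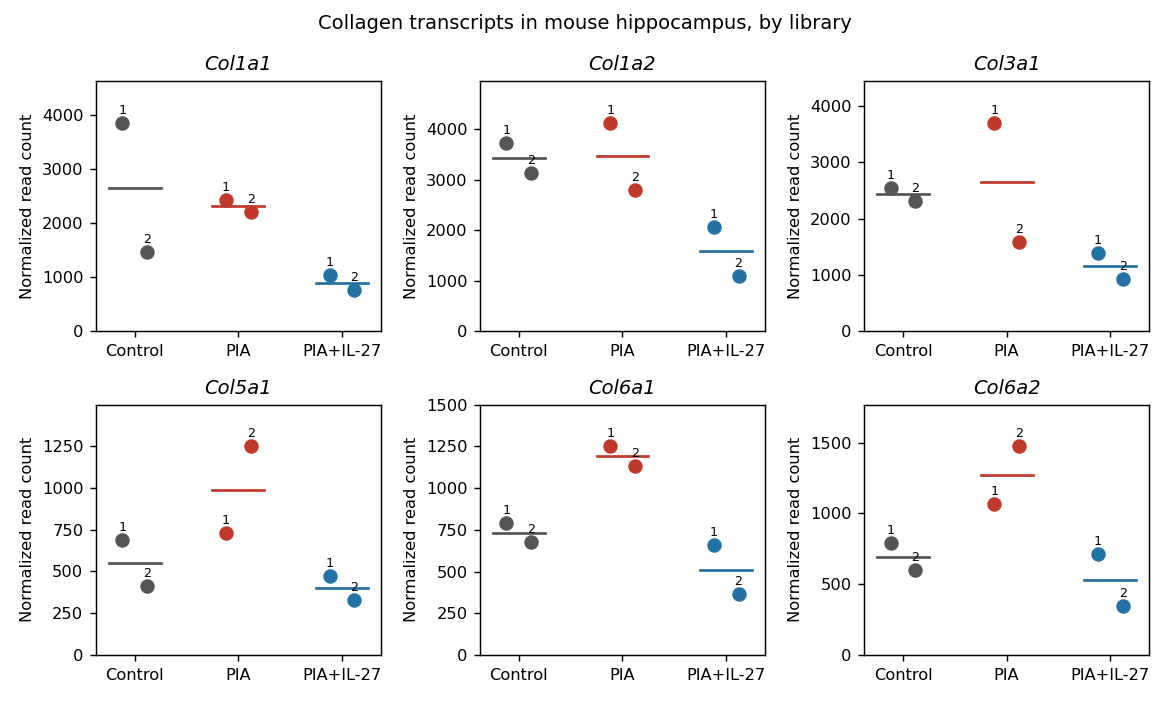
Normalized read count (vertical axis) of each of the 6 collagen genes in the 3 groups; each point is 1 library, numbered by replicate, and each bar is the mean of 2 libraries. Both PIA+IL-27 points lie below both PIA points in every panel, and Col5a1, Col6a1 and Col6a2 are higher in PIA than in Control.

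In PIA+IL-27 against PIA the 6 genes had log2 fold changes between -1.36 and -1.13, and none passed the test. Col1a1 differed by -1.36 ± 0.80 (SE, n = 2 against 2; adjusted p = 0.286 in edgeR's quasi-likelihood test with Benjamini-Hochberg adjustment). Its 95% interval ran from -2.92 to 0.20. Col3a1 differed by -1.19 ± 0.79 (interval -2.74 to 0.37; edgeR adjusted p = 0.312). The values were -1.13 for Col1a2, -1.31 for Col5a1, -1.22 for Col6a1 and -1.26 for Col6a2, with edgeR adjusted p from 0.303 to 0.319. Of the 6 genes, 0 passed an adjusted p of 0.05 in edgeR, where 0.435% of the 3216 tested genes did. At an unadjusted p under 0.05 the count was also 0, against 18.7% of tested genes, and in DESeq2 0 passed after adjustment and 2 before it, where 25.3% of the table did before it. TMM factors over the listed genes moved the median of all tested genes from 1.17 to -0.03. With them Col1a1 was at -2.59 and Col3a1 at -2.35, still without passing. Such factors assume that most listed genes are unchanged, which a table of selected genes need not meet.

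The groups did not overlap for 6 of 6 genes, all lower in PIA+IL-27, where 16.5% of the table was arranged in this way and 57.1% in the opposite one. The median log2 fold change was -1.24 for the 6 genes and 1.17 for all tested genes. This background is a selection, and so are the 6 genes: every gene in the table was past a fold and Q threshold in at least 1 of the authors' comparisons. Col5a1, Col6a1 and Col6a2 were past it only as lower in PIA+IL-27 than in PIA. Their being listed thus already set their direction here, and the count of 6 of 6 is no independent result. In the authors' deposited table all 6 collagens were past that threshold as lower in PIA+IL-27 than in PIA, with log2 values of -1.31 for Col1a1 and -1.17 for Col3a1; 18.2% of the listed genes were.

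In PIA against Control, Col1a1, Col1a2 and Col3a1 were arranged differently from Col5a1, Col6a1 and Col6a2. The log2 fold changes were -0.20 ± 0.80 for Col1a1, 0.02 ± 0.79 for Col1a2 and 0.12 ± 0.79 for Col3a1 (SE, n = 2 against 2; edgeR adjusted p from 0.836 to 0.986). The interval of Col3a1, -1.44 to 1.68, does not show that the groups were alike. Single libraries set these signs, since Col1a1 was at 0.66 without Control 1 and Col3a1 at -0.62 without PIA 1. Col5a1 differed by 0.85 ± 0.84, Col6a1 by 0.70 ± 0.83 and Col6a2 by 0.87 ± 0.83 (edgeR adjusted p from 0.617 to 0.635). The other listed chains of types V and VI did not share this arrangement. The groups overlapped for Col5a3 (log2 fold change 0.32) and Col6a3 (0.43), and Col6a5 was lower in PIA without overlap (-0.54). None of the 6 passed (0 of 6, and 0 at an unadjusted p under 0.05, in both edgeR and DESeq2), where 0.218% of tested genes did in edgeR, and 6.28% before adjustment (5.65% in DESeq2). None of the 6 (0 of 6) was past the threshold of the authors' deposited table in this comparison, where 18% of listed genes were past it as higher and 34.4% as lower. The groups were apart and PIA higher for 3 of 6 genes, against 17.2% of the table (16.5% were apart and lower). The difference between these sets of chains was not itself tested. The libraries also differed in 4 Y-linked genes, whose summed normalized read count was 2.94 and 9.52 in the Control libraries, 541 and 594 in those with PIA alone and 1476 and 6.80 in those with PIA+IL-27. That difference and immune activation cannot be told apart between Control and PIA. The PIA+IL-27 libraries differed from each other in these genes, so both comparisons with that group are unbalanced in them too. PIA+IL-27 2, at 6.80, was also the lowest library for all 6 collagens. The part of this difference in the collagen values was not tested.

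Among the 6 genes, PIA+IL-27 against Control had its largest differences for the chains of types I and III. They were -1.56 ± 0.80 for Col1a1, -1.12 ± 0.79 for Col1a2 and -1.07 ± 0.79 for Col3a1 (edgeR adjusted p = 0.835 for each). The interval of Col1a1 was -3.12 to 0.00, with an unadjusted p of 0.056, and without Control 1 the value was -0.70. For Col5a1, Col6a1 and Col6a2 the log2 fold changes were -0.46, -0.52 and -0.39. None passed in edgeR (0 of 6, also 0 at an unadjusted p under 0.05; DESeq2 0 and 1), with 0.311% of tested genes called, and 2.86% before adjustment (2.12% in DESeq2). The groups were apart and PIA+IL-27 lower for 4 of 6 genes, Col1a1, Col1a2, Col3a1 and Col6a1, against 7.5% of the table lower and 23% higher. Of the 6 genes, 3 were past the threshold as lower in the authors' deposited table, Col1a1 at -1.57, Col1a2 at -1.14 and Col3a1 at -1.09, and 8.57% of listed genes were. The 3 comparisons share libraries, so they are not independent of each other.

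**Figure D2:**
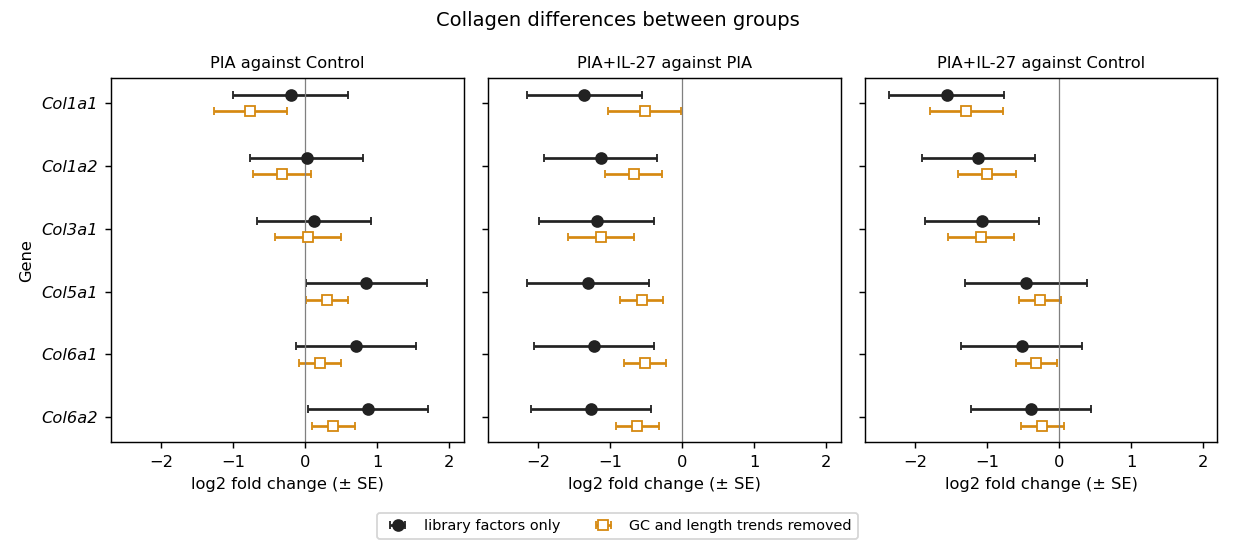
Log2 fold change (horizontal axis, ± SE) of the 6 collagen genes in the 3 comparisons; filled circles are the fit with library factors only and open squares the fit with GC and length trends removed. In PIA+IL-27 against PIA all values lie left of 0 in both fits, and Col3a1 moved least between the fits (-1.19 and -1.13).

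Replicates of a group differed by as much as the groups did for some chains. The Controls differed 2.64-fold in Col1a1 but 1.10-fold in Col3a1 and 1.19-fold in Col1a2. In PIA the order was turned round, with 1.10-fold in Col1a1 and 2.34-fold in Col3a1. In PIA+IL-27 the fold between replicates ran from 1.37 for Col1a1 to 2.08 for Col6a2. Over all 6 libraries, the highest value was 5.06 times the lowest for Col1a1 and 3.44 to 4.30 times for the other 5. The standard errors of the main fit do not follow these differences, since its spread was shared over all tested genes. Of those genes, 71.8% differed more than 2-fold between the Controls, 28.8% between the PIA libraries and 28.7% between those with PIA+IL-27.

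Levels of different chains can be set side by side only per length, here as TPM. Col1a2 had the highest TPM of the 6 in every library, from 83.9 in PIA 1 to 24.6 in PIA+IL-27 2, and Col5a1 the lowest, from 14.8 in PIA 2 to 4.42 in PIA+IL-27 2. Col1a1 and Col3a1 exchanged places: Col1a1 was above Col3a1 in Control 1 (67.5 and 47.7 TPM) and PIA 2 (37.7 and 29.0), and below it in the other 4 libraries. The summed TPM of the 6 genes was 242 and 202 in the Control libraries, 271 and 207 in those with PIA alone and 141 and 85.3 in those with PIA+IL-27. They made up 67.0 to 83.5% of the TPM of the 22 collagen chain genes in the table.

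A type I molecule usually holds 2 chains from Col1a1 for 1 from Col1a2, but the transcript ratio varied between replicates. The TPM ratio of Col1a1 to Col1a2 was 0.904 and 0.408 in the Control libraries, 0.513 and 0.687 in those with PIA alone and 0.441 and 0.605 in those with PIA+IL-27. The interval for counting error was 0.865 to 0.946 in Control 1 and 0.383 to 0.433 in Control 2 (95%, exact Clopper-Pearson), so the replicates differed by more than counting. Such intervals cover counting error only. The ratio of Col1a1 to Col3a1 ranged 2.41-fold, from 0.588 in Control 2 to 1.42 in Control 1, and it was 1.30 in PIA 2. The ratio of Col3a1 to Col1a2 ranged 1.59-fold and that of Col6a1 to Col6a2 1.51-fold, from 0.728 in PIA 2 to 1.10 in PIA 1. The 3 groups overlapped in each of these 4 ratios. The ratio of Col5a1 to Col1a1 had the widest range, 3.18-fold, and was 0.123 and 0.195 in the Control libraries, 0.209 and 0.392 in those with PIA alone and 0.313 and 0.297 in those with PIA+IL-27. Both Controls were below the other 4 libraries in this ratio, while PIA and PIA+IL-27 overlapped. Control 2 and PIA 1 were close, with counting intervals of 0.175 to 0.217 and 0.192 to 0.226.

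**Figure D3:**
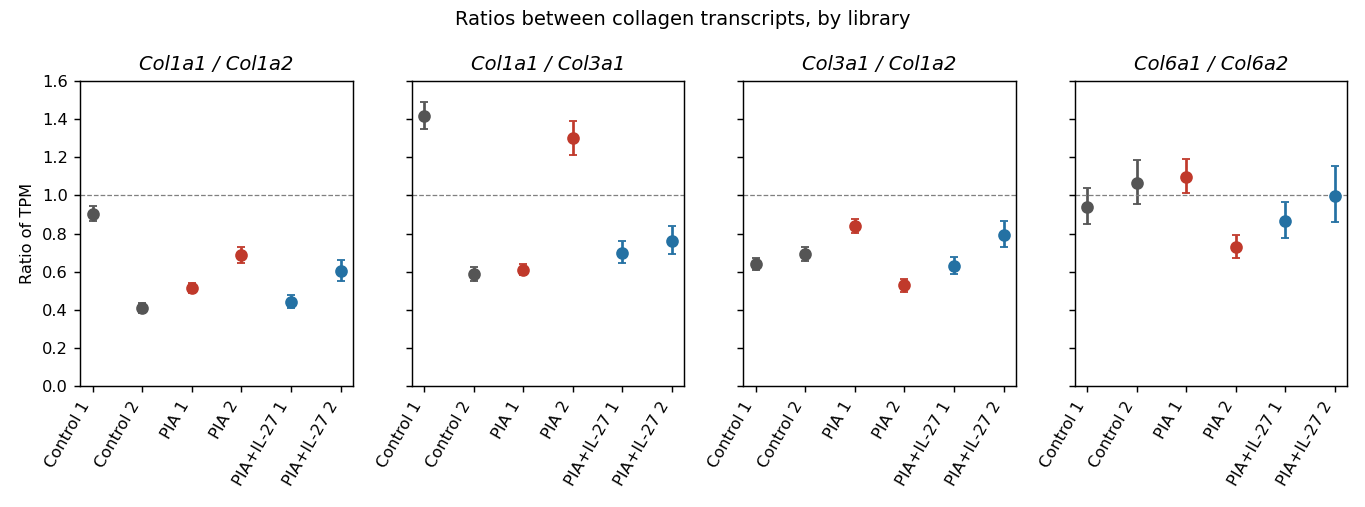
TPM ratio between 4 pairs of collagen genes (vertical axis) in each library; bars are 95% exact Clopper-Pearson intervals for counting error. Col1a1 exceeds Col3a1 in Control 1 (1.42) and PIA 2 (1.30) only.

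PIA 2 and PIA+IL-27 1 stood apart from the other 4 libraries in region markers. The summed TPM of 5 neocortical markers was 88.4 in PIA 2 and 149.7 in PIA+IL-27 1, and 22.9 to 49.2 elsewhere. That of 3 dentate granule cell markers was 1.92 and 2.99 in those libraries, and 9.35 to 23.6 elsewhere. Between the pair that stood apart, PIA+IL-27 1 had 0.877 times the Col3a1 of PIA 2, and between the other pair, PIA+IL-27 2 had 0.252 times that of PIA 1. For Col1a1 the ratios were 0.472 and 0.315, for Col1a2 0.734 and 0.266, for Col6a1 0.582 and 0.290, and for Col6a2 0.485 and 0.321. Col5a1 had the opposite order, 0.377 and 0.447. A ratio below 1 was thus found for all 6 genes in both pairs, but Col3a1 depended most on which libraries were paired. With a term for PIA 2 and PIA+IL-27 1 in the fit, the log2 fold changes of the 6 genes were -1.38 to -1.09, with edgeR adjusted p from 0.410 to 0.414. Without PIA 1, Col3a1 in PIA+IL-27 against PIA was at -0.45 and Col1a2 at -0.83; without PIA 2, Col3a1 was at -1.67 and Col5a1 at -0.87.

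GC content moved with the group differences in the whole table. Over 3081 tested genes with a GENCODE transcript, the log2 fold change of PIA+IL-27 against PIA had a Spearman correlation of -0.64 with GC content, given as a description across genes that share libraries and are not independent. It was 0.39 for PIA against Control and -0.46 for PIA+IL-27 against Control. The 6 collagens are GC-rich, as glycine and proline codons are. Col1a1 had 58.9% GC, Col5a1 58.0%, Col6a1 56.7%, Col6a2 56.2%, Col1a2 55.7% and Col3a1 52.5%, beside a median of 44.4% over tested genes.

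Among the 22 collagen chain genes, 14 had a log2 fold change below 0 in PIA+IL-27 against PIA, with GC contents of 51.0 to 62.9%, and 8 one above 0, with 45.9 to 51.9%. Every chain with at least the GC content of Col3a1 was below 0, and of those with less, Col24a1 alone was, at -0.01. The Spearman correlation over the 22 was -0.80, and over the 16 other chains it was -0.83. After smooth trends on GC content and length were removed from each library, an alternative chosen after the data were seen, it was -0.28 over the 22.

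In that fit Col3a1 was at -1.13 and Col1a1 at -0.52 in PIA+IL-27 against PIA. The others were at -0.67 for Col1a2, -0.62 for Col6a2, -0.56 for Col5a1 and -0.52 for Col6a1, and the edgeR adjusted p ran from 0.596 to 0.737. The median was -0.59 for the 6 genes and 0.08 for all tested genes. All 6 remained below 0, and Col1a1, the gene with the highest GC content of the 6, moved most, while Col3a1, with the lowest, moved least. Against Control, PIA+IL-27 was at -1.28 for Col1a1, -1.09 for Col3a1 and -1.0 for Col1a2 in the same fit. Col5a1, Col6a1 and Col6a2 were at 0.30, 0.21 and 0.39 in PIA against Control. The part of GC content in the collagen differences was not tested beyond this fit.

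**Figure D4:**
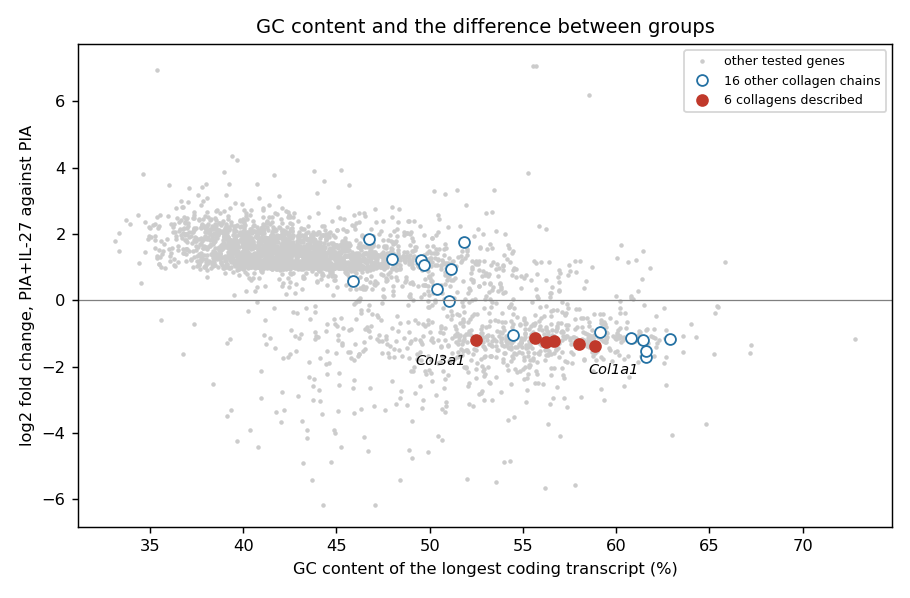
Log2 fold change of PIA+IL-27 against PIA (vertical axis) against the GC content in percent of the longest coding transcript (horizontal axis); each point is 1 gene. The 16 other chains (open) went down with GC content (Spearman correlation -0.83). The 6 collagens described (filled) lie between -1.36 and -1.13, with Col3a1 at 52.5% and Col1a1 at 58.9% GC.

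The 16 other collagen chain genes did not share the direction of the 6 as a class. Against PIA, 8 had log2 fold changes above 0 in PIA+IL-27 and 8 below 0, with a median of 0.17, and 0 passed edgeR's test (0 at an unadjusted p under 0.05). The basement membrane collagen Col18a1 had normalized read counts of 604 and 705 in the Control libraries, 803 and 1091 in those with PIA alone and 520.3 and 349.5 in those with PIA+IL-27. It had the arrangement of Col6a1, with PIA above and PIA+IL-27 below both Controls, but its log2 fold change against PIA went from -1.12 to -0.00 when the GC and length trends were removed. Col6a3, the third chain of type VI collagen, had 308.5 and 248 in the Control libraries, 447 and 304 in those with PIA alone and 221 and 142 in those with PIA+IL-27. Its PIA libraries overlapped with Control, unlike those of Col6a1 and Col6a2, and its log2 fold change against PIA was -1.05, or -0.95 with the trends removed. Col11a1, a fibrillar chain of cartilage, had the opposite order, with 151 and 259.9 in the Control libraries, 128 and 76.4 in those with PIA alone and 224 and 265 in those with PIA+IL-27.

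Genes that mark meningeal and perivascular fibroblasts, the main source of these collagens in brain, were higher in both PIA libraries than in both Controls for 12 of the 12 markers in the table (of 25 listed), where 17.2% of the table was. Their median log2 fold change was 1.24 in that comparison, -1.27 in PIA+IL-27 against PIA, and -0.23 against Control. None of the 12 passed edgeR's test in any comparison, and at an unadjusted p under 0.05 there were 1, 1 and 0 in that order. The table holds only genes past the authors' threshold in some comparison. The 12 markers are therefore a selected part of the 25, and the others were not seen. Slc6a13, a GABA and taurine transporter of leptomeningeal fibroblasts, had normalized read counts of 425 and 408 in the Control libraries, 821 and 940.4 in those with PIA alone and 496 and 172 in those with PIA+IL-27. Aldh1a2, a retinoic acid synthase of the meninges, had 507 and 291 in the Control libraries, 1474 and 594 in those with PIA alone and 441 and 125 in those with PIA+IL-27. Both were higher in PIA than in Control without overlap.

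The summed TPM of 11 of these markers, leaving out the very abundant Ptgds, was 87.9 and 88.8 in the Control libraries, 213 and 146 in those with PIA alone and 122 and 33.9 in those with PIA+IL-27. None of the markers in the table was at 0 in any library. Ptgds alone, a prostaglandin synthase of leptomeninges that choroid plexus and oligodendrocytes also make, had a TPM of 734 and 554 in the Control libraries, 2343 and 2663 in those with PIA alone and 1854 and 110 in those with PIA+IL-27. The collagens and the markers did not keep 1 proportion. The 6 collagens had 2.75 and 2.27 times the TPM of the 11 markers in Control, 1.28 and 1.41 times in PIA, and 1.15 and 2.52 times in PIA+IL-27. The fibroblast markers in this selected table were thus higher in PIA by more than the collagens were. PIA+IL-27 1, where the collagens were low, had more marker TPM than either Control. Without PIA+IL-27 2 the median of the markers in PIA+IL-27 against PIA was -0.66, and without PIA+IL-27 1 it was -2.52. Against Control it was 0.46 and -1.36 in turn, so its sign rested on PIA+IL-27 2. With trends on GC content and length removed, the median in PIA+IL-27 against PIA was -0.63, and with the term for the libraries that stood apart that of PIA against Control was 0.72. The part of the fibroblast content in the collagen differences was not tested.

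**Figure D5:**
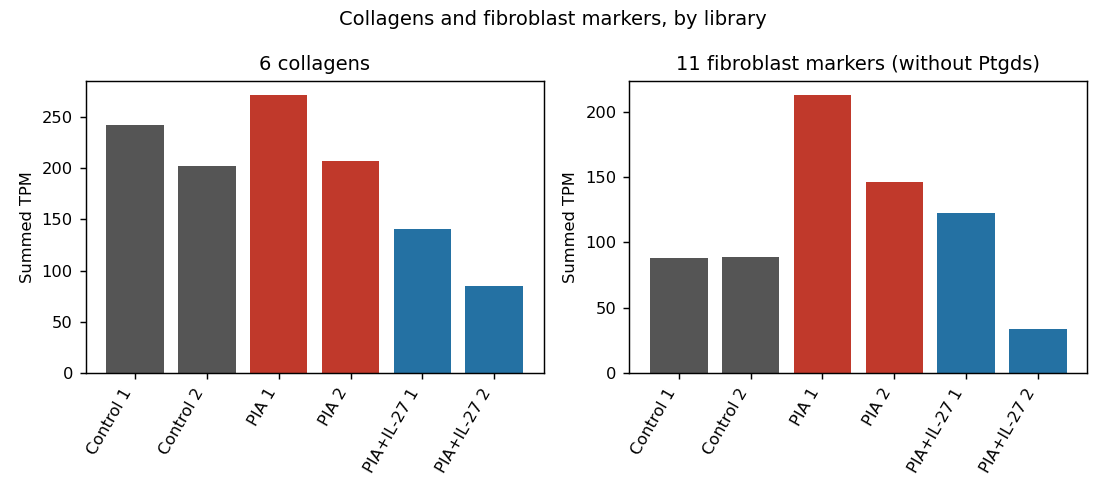
Summed TPM (vertical axes, starting at 0) of the 6 collagens and of 11 fibroblast markers; each bar is 1 library. The markers are higher in PIA (213 and 146) than in Control (87.9 and 88.8), whereas the collagen sums of these groups overlap (271 and 207 beside 242 and 202).

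Markers of other cell types also moved between libraries. Choroid plexus markers, 19 of 20 in the table, had a summed TPM of 14348 in Control 2 and 2420 in PIA 1, against 45.3 to 194 in the other 4 libraries. Most of the first 2 sums was Ttr, at 13901 and 2338 TPM. Control 2 was also the highest library for Enpp2 (137.5), Folr1 (75.4) and Calml4 (55.5). PIA 1 was next for Folr1 (13.3) but not for Enpp2 or Calml4. Control 2 was below Control 1 in normalized read count for all 6 collagens, whereas PIA 1 was the highest of the 6 libraries for Col1a2, Col3a1 and Col6a1. The part of choroid plexus tissue in these values was not tested. Mural cell markers, 5 of 16, ranged from 37.5 to 84.2, and endothelial markers, 6 of 20, from 56.2 to 215.8. Acta2, the smooth muscle actin, had normalized read counts of 238 and 215 in the Control libraries, 337 and 237 in those with PIA alone and 150.2 and 82.5 in those with PIA+IL-27, and so had the same arrangement of groups as Col3a1. Rgs5, a pericyte gene, had 265 and 1637 in the Control libraries, 387 and 232 in those with PIA alone and 1225 and 679.6 in those with PIA+IL-27, and had not.

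Of 31 listed genes for secretion, processing and crosslinking, 7 were in the table, and in PIA+IL-27 against PIA 4 were higher and 3 lower without overlap, beside 57.1 and 16.5% of the table; 0 passed edgeR's test and 1 had an unadjusted p under 0.05. Pcolce, which enhances removal of the C-terminal propeptide, had normalized read counts of 333 and 297 in the Control libraries, 538 and 453 in those with PIA alone and 270.1 and 115 in those with PIA+IL-27. Loxl2, a lysyl oxidase that crosslinks collagen, had 299 and 167 in the Control libraries, 496 and 304 in those with PIA alone and 178 and 78.6 in those with PIA+IL-27. Loxl1, of the same family, was at -1.22 against PIA. These 3 lower genes had the arrangement of Col5a1, Col6a1 and Col6a2 in PIA, above both Controls. Mia3, which loads procollagen into transport vesicles, went the other way, with 573 and 1394 in the Control libraries, 715 and 396 in those with PIA alone and 1603 and 1335 in those with PIA+IL-27.

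Of 9 matrix genes in the table (of 28 listed), 2 were higher and 2 lower without overlap in PIA+IL-27 than in PIA (57.1 and 16.5% of the table), 0 passed edgeR's test and 3 had an unadjusted p under 0.05. Tgfbi, a secreted protein that binds collagens, had normalized read counts of 271 and 223 in the Control libraries, 523 and 220.4 in those with PIA alone and 108 and 45.6 in those with PIA+IL-27, at a log2 fold change of -2.27. Its order over the libraries was close to that of Col3a1. Vcan, a proteoglycan of the hyaluronan matrix, was at 1.84 against PIA. Mgp and Fmod, the most abundant of these genes by mean TPM, were at -0.77 and -1.08 with overlapping groups. Mgp had 127 and 70.5 in the Control libraries, 282 and 216 in those with PIA alone and 260 and 32.0 in those with PIA+IL-27. Fmod had 321 and 353, 622 and 1070, and 770 and 32.0 in the same order.

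Of 8 receptor and breakdown genes in the table (of 24 listed), 7 were tested and 0 passed edgeR's test; 2 had an unadjusted p under 0.05 in PIA+IL-27 against PIA. In that comparison 2 were higher and 4 lower without overlap, beside 57.1 and 16.5% of the table. Mmp9, a gelatinase that cuts denatured collagen, had 179 and 126 in the Control libraries, 351 and 156 in those with PIA alone and 99.1 and 71.8 in those with PIA+IL-27. Timp1, which inhibits such proteases, had 109.7 and 11.4 in the Control libraries, 239 and 32.7 in those with PIA alone and 22.9 and 16.5 in those with PIA+IL-27. Both the protease and its inhibitor were lower in PIA+IL-27 than in PIA without overlap. Itga1, the alpha chain of a collagen-binding integrin, was among the higher genes, with 29.4 and 94.3 in the Control libraries, 57.7 and 20.7 in those with PIA alone and 133 and 68.0 in those with PIA+IL-27. Of 5 TGF-beta signalling genes (of 23 listed), the pathway that drives collagen transcription in fibroblasts, 2 were higher and 1 lower in PIA+IL-27 than in PIA without overlap, beside the same 57.1 and 16.5%, and 0 passed (0 at an unadjusted p under 0.05). Its classical target Ccn2 had 165.5 and 106 in the Control libraries, 387 and 547 in those with PIA alone and 461 and 156 in those with PIA+IL-27. The log2 fold change of Ccn2 against PIA was -0.60, with overlapping groups, and that of the receptor Tgfbr1 was 1.21.

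Among 2654 genes with a mean normalized read count of at least 20, likeness was measured by Pearson's r of log2(normalized read count + 1) over the 6 libraries, as a description. Among the 10 genes most like Col1a1 were Tpm2 (0.96), Oaf, Lgals1, Eva1c, Ccn1, Lama1, Lsp1, Atoh8 and Ltbr (0.87). Those most like Col3a1 were Gpr182 (0.997), Mmp19, Hspb8, Steap4, Tgfbi, Plscr1, Col1a2, Plscr2, Acta2 and Mmp9 (0.92). The 10 genes of each had 0 in common. Col1a2 was the seventh most like Col3a1 (0.94) and ranked 11 for Col1a1 (0.87), whereas Col3a1 ranked 83 for Col1a1 (0.77). Col6a1 and Col5a1 ranked 74 and 325 for Col3a1 (0.75 and 0.40). Within types I and III, Col3a1 and Col1a2 were thus the pair most alike.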

How the data were processed

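Total RNA of mouse hippocampus was sequenced in 6 libraries, grouped by the treatment in the labels; table columns were joined to samples by library name. The members and gene lists were chosen with earlier results of these data known. Each gene has a deposited expected count in each library (11.3 to 13.3% of values are not whole). The normalized read count, a signal made by the authors, is the count rounded up and divided by 1 factor per library (0.917 to 1.05). TPM and FPKM are given by the authors per the file headers; FPKM was not used. The authors also deposited log2 ratios and p-values or Q values. The authors' test, strand setting, aligner and genome build are not stated in the labels or headers. All 3733 genes pass the authors' threshold in some comparison, so adjusted p-values hold for a selected table. Listed genes summed to 641672 to 1593441 reads and 2.14 to 5.61% of TPM.

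Expected counts were rounded and tested with edgeR 4.0.16 (R 4.3.3; quasi-likelihood, all 6 libraries in 1 fit, the authors' factors, filterByExpr, Benjamini-Hochberg, threshold 0.05), which tested 3216 genes with a biological coefficient of variation of 0.597. The prior degrees of freedom were infinite, so no gene's own spread entered this test. The procedure was run on simulated data with set changes. Their recovery was required only at a coefficient of variation of 0.1, below the 0.597 of these data. Alternatives were other factors, no filter, replicate number as a block, fewer libraries, DESeq2 1.42.0 and limma 3.58.1 on log2(TPM + 1) or log2(TPM + 0.1). With the data in view, further alternatives were added: a robust spread, a term for PIA 2 and PIA+IL-27 1, and loess trends on GC and length (span 0.5). GC content came from GENCODE for 95.0% of genes. Named were the 6 collagens, up to 6 further chains and 4 genes per list by mean TPM, and the 10 genes most like Col1a1 and Col3a1, of which 1 is not reported here.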

Additional observations from a re-analysis of the deposited data

How the results depend on the processing

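With 2 libraries a group and a table of selected genes, a p that misses the threshold bounds little. None of the 6 collagens passed in the 17 alternatives of each comparison (0 of 102 values). The smallest adjusted p was 0.150 in PIA against Control, 0.0621 in PIA+IL-27 against PIA and 0.116 in PIA+IL-27 against Control. All 6 were below 0 in PIA+IL-27 against PIA in all 17, but Col5a1, Col6a1 and Col6a2 were listed only through being lower in that comparison. At an unadjusted p under 0.05, 6 of 6 collagens were there with TMM or median-of-ratios factors, as were 18.2 and 17.9% of tested genes. Both kinds of factor assume that most listed genes are unchanged, which a selected table need not meet. They shift all genes of a library together, so this count is no separate support.

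TMM factors over the listed genes moved the median of all tested genes from -0.68 to -0.00, from 1.17 to -0.03 and from 0.55 to -0.01 in the 3 comparisons, in the order above. Under them Col1a1 was at -2.59 and Col3a1 at -2.35 in PIA+IL-27 against PIA.

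Directions turned where the values were near 0. In PIA against Control, Col1a2 was at -0.014 with the replicate block, -0.10 without Control 2, -0.29 without PIA 1, -0.12 and -0.13 in limma with 1 and 0.1 added, -0.051 with the added library term, and -0.33 with GC and length trends removed. Col3a1 was at -0.62 without PIA 1 and at -0.12 and -0.13 in limma, and Col1a1 at 0.66 without Control 1. In PIA+IL-27 against Control, Col6a2 was at 0.044 without PIA+IL-27 2. Leaving out 1 library at a time, PIA against Control ranged from -0.74 to 0.66 for Col1a1, from -0.62 to 0.61 for Col3a1 and from -0.29 to 0.27 for Col1a2, and Col6a2 in PIA+IL-27 against Control from -1.01 to 0.044. The cause was not tested.

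Genes called in PIA against Control numbered 7, with 0 under TMM and 0 under median-of-ratios factors (119 and 114 at an unadjusted p under 0.05), 3 with the replicate block, 2 in DESeq2, 12 in limma with 0.1 added, 4 with a robust spread and 0 with trends removed (128 unadjusted). In PIA+IL-27 against PIA they numbered 14, with 0 and 0 under those factors (592 and 583 unadjusted), 4 with the block, 449 with only the libraries of the comparison, 4 in DESeq2, 2 with the library term, 8 with a robust spread and 0 with trends removed (224 unadjusted). In PIA+IL-27 against Control they numbered 10, with 0 and 0 (119 and 110 unadjusted), 3 with the block, 1 with only its libraries, 1 in DESeq2, 2 and 5 in limma, 3 with the library term and 0 with trends removed (49 unadjusted). Leaving out 1 library gave 0 to 7 in each comparison. Same-numbered libraries deviated with correlations of 0.15, 0.06 and -0.26, so the numbers were not taken to pair them. With the pairing of PIA and PIA+IL-27 crossed, 1195 of 3006 genes (39.8%) were called and 0 of the 6 collagens, of which 4 had an unadjusted p under 0.05 (57.8% of genes).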

Other observations

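Col25a1, a membrane collagen of neurons, had normalized read counts of 249 and 554 in the Control libraries, 321 and 73.1 in those with PIA alone and 153 and 435 in those with PIA+IL-27, and was thus lowest in PIA 2 and then PIA+IL-27 1, which had the most neocortical and the least dentate marker signal. Col8a2, a network-forming chain, had 92.1 and 403 in the Control libraries, 95.1 and 132 in those with PIA alone and 71.9 and 44.7 in those with PIA+IL-27. Both PIA+IL-27 libraries were below the other 4, and its highest value was in Control 2, the library with the highest choroid plexus marker sum. Col16a1, which associates with fibrils, had 633 and 381 in the Control libraries, 692 and 935 in those with PIA alone and 362 and 350.5 in those with PIA+IL-27. Its log2 fold change in PIA+IL-27 against PIA was -1.19, or 0.05 with GC and length trends removed.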
